A study of Mus musculus with 18 samples.

Results

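Respiratory complex I (NADH:ubiquinone oxidoreductase) was followed in single mouse 2-cell embryos through the nuclear genes named Nduf, which encode its subunits and several of its assembly factors. A gene was taken if the array annotation gave it a symbol beginning with Ndufa, Ndufb, Ndufc, Ndufs, Ndufv or Ndufaf and a number (or Ndufab1), and it was read by the probe set with the highest mean over the 18 embryos among those that name that gene alone. This gave 43 genes of the 19935 genes with a probe set of their own. They comprised 6 core subunits, 28 accessory subunits, the pair Ndufa4 and Ndufa4l2, and 7 assembly factors. All 43 are called complex I genes below, although Ndufa4 is now placed in complex IV and Ndufa4l2 is its paralogue. Ndufb4, Ndufb4b and Ndufs5-ps matched by symbol but lay only on probe sets shared with other genes.

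The embryos came from natural matings with females of the inbred strain 129SVE (129S6/SvEvTac). There was 1 embryo per Affymetrix Mouse Gene 1.0 ST array, with 3 embryos from each of 6 fathers. The 9 WT embryos had the wild-type fathers WT1, WT2 and WT3. The other 9 embryos had the fathers PargA, PargB and PargC, which are Parg(110)-/-, and wild-type mothers, so that these embryos carried a deletion of exons 2 and 3 of Parg on the paternal allele and are written Parg(110)-/+. The product of Parg, poly(ADP-ribose) glycohydrolase, degrades the poly(ADP-ribose) chains that are attached to chromatin proteins, and the sires lack its long isoform. The study asked whether the disturbed packaging of sperm chromatin in such males goes along with altered transcript levels in their offspring, and for these genes an effect of the father's sperm and one of the embryo's own genotype cannot be told apart. An embryo is named by its father and its number, as in PargB-1.

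Complex I takes electrons from NADH through a flavin and a chain of iron-sulfur clusters, passes them to ubiquinone and pumps protons across the mitochondrial inner membrane. Its catalytic core is made partly from mitochondrial and partly from nuclear genes, the accessory subunits surround and stabilize the core, and the assembly factors help to build the complex without remaining in it. The 2-cell embryo lives mainly on pyruvate oxidized by mitochondria inherited from the oocyte, and its RNA is a mixture of maternal transcripts that are being degraded and of transcripts from its own newly activated genome.

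All values are log2 levels after robust multichip averaging (RMA), in which a difference of 1 is a doubling. Differences are taken between embryos for a probe set. The mean of a probe set also depends on its probes, so means and counts above the median of all probe set means, 6.47, only describe the signal and rank no genes. The array medians lay between 6.34 and 6.53, with means of 6.42 in WT and 6.48 in Parg(110)-/+ embryos. PargB-1 stood apart from the other arrays, with a median correlation of 0.937 across probe sets against 0.946 to 0.953 for the others. As a check of the label, the mean log2 level of the 8 oocyte markers was 10.6 to 11.3 in WT and 10.6 to 11.2 in Parg(110)-/+ embryos, and that of the 4 measured markers of 2-cell transcription was 8.33 to 9.97 and 8.48 to 9.86. Of these, 7 (all but Mos) and 4 had means above the median. The mean log2 level of the 10 measured cumulus, granulosa and oviduct markers was 5.92 to 6.24 in WT and 6.10 to 6.45 in Parg(110)-/+ embryos, and that of the 4 measured blood markers was 4.97 to 5.15 and 5.09 to 5.23. The corresponding ranges were 5.91 to 6.39 and 6.07 to 6.26 for the 6 spermatid markers. Of the latter 3 lists, 2 cumulus, 3 spermatid and 0 blood markers had means above the median, so the median alone does not tell an embryo's own transcripts from others, and 9 of 10, 6 of 6 and 4 of 4 were higher on average in Parg(110)-/+ embryos (8 of 10, 5 of 6 and 4 of 4 on arrays set to equal medians). Their part in the levels below was not tested. Each array read a whole embryo, so the number of mitochondria or cells and the amount of RNA per cell cannot be told apart.

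Promoter sequence, which had no part in the choice of the genes, is shown first as something that members share. RefSeq promoters of build GRCm38.p6, 250 bases before to 50 bases after a gene's start, matched 38 of the 43 genes, all but Ndufaf6, Ndufa2, Ndufa4l2, Ndufs1 and Ndufb9. Cores of 3 factors known to act on nuclear genes for mitochondria were searched on both strands. The NRF-1 core GCGCANGCG was in 9 of the 38 genes (23.7%), against 7.03% of the 27025 genes with a promoter and 9.63% of the 17491 protein-coding ones. The YY1 core AANATGGCG was in 7 (18.4%), against 2.76% and 3.64%, and the Ets core CCGGAAG in 5 (13.2%), against 9.93% and 12.9%. At least 1 of the 3 was in 20 genes (52.6%), against 17.2% of all genes with a promoter. The combined share among protein-coding genes alone was not computed. The cores can overlap each other in letters. The Ets core ends in AAG, with which the YY1 core can begin, and the YY1 core ends in GCG, with which the NRF-1 core begins. The same stretch can therefore match different cores, so their counts are not separate. A palindromic stretch is also matched on both strands. A match is a description of these letters and not a binding site.

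The 5 stretches below, each of 30 bases in the direction of transcription with the NRF-1 match in capitals, belong to 3 subunits and 2 assembly factors. The match begins 60 bases before the start in Ndufa11 (chr17:56717692-56717721, plus strand), 9 bases before it in Ndufa8 (chr2:36049328-36049357, minus strand), 98 before in Ndufs5 (chr4:123718265-123718294, minus strand), 113 before in Ndufaf4 (chr4:24897960-24897989, plus strand) and 16 bases after it in Ndufaf5 (chr2:140170652-140170681, plus strand).
Ndufa11: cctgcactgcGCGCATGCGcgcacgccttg
Ndufa8: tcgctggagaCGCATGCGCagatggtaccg
Ndufs5: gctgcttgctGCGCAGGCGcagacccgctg
Ndufaf4: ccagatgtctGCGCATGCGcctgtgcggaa
Ndufaf5: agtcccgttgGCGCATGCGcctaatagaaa

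In 5 of the 7 genes with the YY1 core, the match lay in the same orientation 22 to 35 bases after the start, and these 5 are shown with the match in capitals. They are Ndufs7 (chr10:80249463-80249492, plus strand), Ndufa9 (chr6:126849096-126849125, minus strand), Ndufc1 (chr3:51408914-51408943, minus strand), Ndufs4 (chr13:114388045-114388074, minus strand) and Ndufs6 (chr13:73328433-73328462, minus strand). They are a core subunit and 4 accessory subunits. The bases around the match differ between them, although Ndufs4 and Ndufs6 share gcggt directly after it. Each match holds the letters ATG, and whether translation starts there was not tested. Ndufs6 was the 1 gene that also held the NRF-1 core.
Ndufs7: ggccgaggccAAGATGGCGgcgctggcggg
Ndufa9: attgtgggagAAGATGGCGgccgccgtccg
Ndufc1: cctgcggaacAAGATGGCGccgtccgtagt
Ndufs4: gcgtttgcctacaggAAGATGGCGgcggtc
Ndufs6: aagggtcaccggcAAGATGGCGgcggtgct

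The levels of complex I genes varied widely between embryos. Their probe set means lay between 5.19 and 10.8, and 39 of the 43 lay above the median of all probe set means. The SD over the 18 embryos had a median of 0.67 over the 43 genes, against 0.20 over all 28815 probe sets and 0.32 over the probe sets above the median level. An SD over 1 was seen in 9 of the 43 genes (20.9%), against 5.17% of all probe sets and 6.32% of those above the median level. Within bands of mean level of width 1, the SD of a complex I gene exceeded the median SD of its band in 2 of 2 genes from 5 to 6, 9 of 9 from 6 to 7, 10 of 10 from 7 to 8, 8 of 10 from 8 to 9, 6 of 6 from 9 to 10 and 6 of 6 from 10 to 11. The wide spread was shared by both genotypes, with a median SD of 0.61 in WT and 0.63 in Parg(110)-/+ embryos. It was larger in Parg(110)-/+ embryos for 18 genes and in WT for 25, where 51.5% of all probe sets had the larger SD in Parg(110)-/+.

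**Figure D1:**
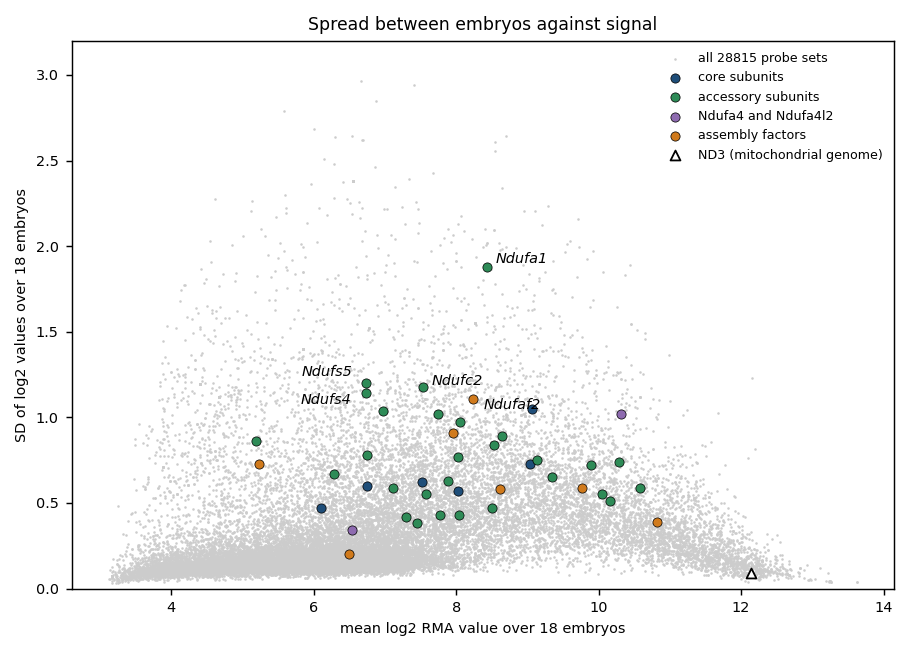
Mean log2 level (horizontal) against the SD of the log2 levels over 18 embryos (vertical) for all 28815 probe sets (grey) and the 43 complex I genes, coloured by role, with the mitochondrial ND3 as a triangle. Most complex I genes lie above the grey mass, with Ndufa1 highest at an SD of 1.88. ND3, at 0.09, lies among the grey probe sets of its level.

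The median SD was 0.61 for the core subunits, 0.73 for the accessory subunits and 0.59 for the assembly factors. Of the 7 subunits made from mitochondrial genes, ND3 alone had probe sets of its own. It had 2, and only the one with the higher mean was read. ND3 measured 12.01 to 12.29 in WT and 12.03 to 12.35 in Parg(110)-/+ embryos, with an SD of 0.09 over the 18, where the median SD of all probe sets with means from 12 to 13 was 0.12. Complex II, the other entry of electrons to ubiquinone, had a median SD of 0.55 over 8 genes, and the 13 regulators of nuclear genes for mitochondria and 11 assembly factors with other names had medians of 0.39 and 0.40.

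The largest spread belonged to Ndufa1 (chromosome X), a small subunit of the membrane arm needed for assembly. The log2 levels of the WT embryos, in the order of the fathers WT1 to WT3, were 9.28, 6.03, 5.98, 8.21, 10.52, 8.51, 9.50, 6.20 and 10.26. Those of the Parg(110)-/+ embryos, in the order PargA to PargC, were 9.19, 10.28, 5.49, 11.08, 5.40, 7.58, 9.63, 10.09 and 8.52. Thus 5 embryos, 3 of them WT and 2 Parg(110)-/+, lay at or under 6.20 and the other 13 at or above 7.58, with the groups overlapping over nearly the whole range. The SD was 1.81 in WT and 2.05 in Parg(110)-/+ embryos.

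Ndufs5 (chromosome 4), a membrane-arm subunit on the intermembrane space side, followed with an SD of 1.20. It measured 8.25, 7.15, 5.71, 5.63, 5.56, 5.74, 5.67, 5.88 and 8.30 in the WT embryos in the same order, and 8.65, 8.48, 5.60, 5.98, 6.60, 8.53, 5.70, 6.97 and 6.98 in the Parg(110)-/+ embryos. High values thus occurred in 2 WT embryos (WT1-1 and WT3-3) and in 3 Parg(110)-/+ embryos, and the rest of each group lay between 5.56 and 7.15.

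Ndufc2 (SD 1.18), another membrane-arm subunit, ran from 6.49 over a median of 7.34 to 9.49 in WT and from 6.16 over 6.89 to 10.44 in Parg(110)-/+ embryos. Ndufs4 (SD 1.14), whose product holds the NADH-oxidizing module in place and whose loss causes Leigh syndrome, ran from 5.65 over 6.98 to 9.64 and from 5.43 over 6.12 to 7.97. Ndufaf2 (SD 1.11), an assembly factor that is a paralogue of the subunit Ndufa12, ran from 6.79 over 7.52 to 9.61 and from 7.30 over 8.67 to 9.72. In all 3 genes the ranges of the genotypes overlapped.

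**Figure D2:**
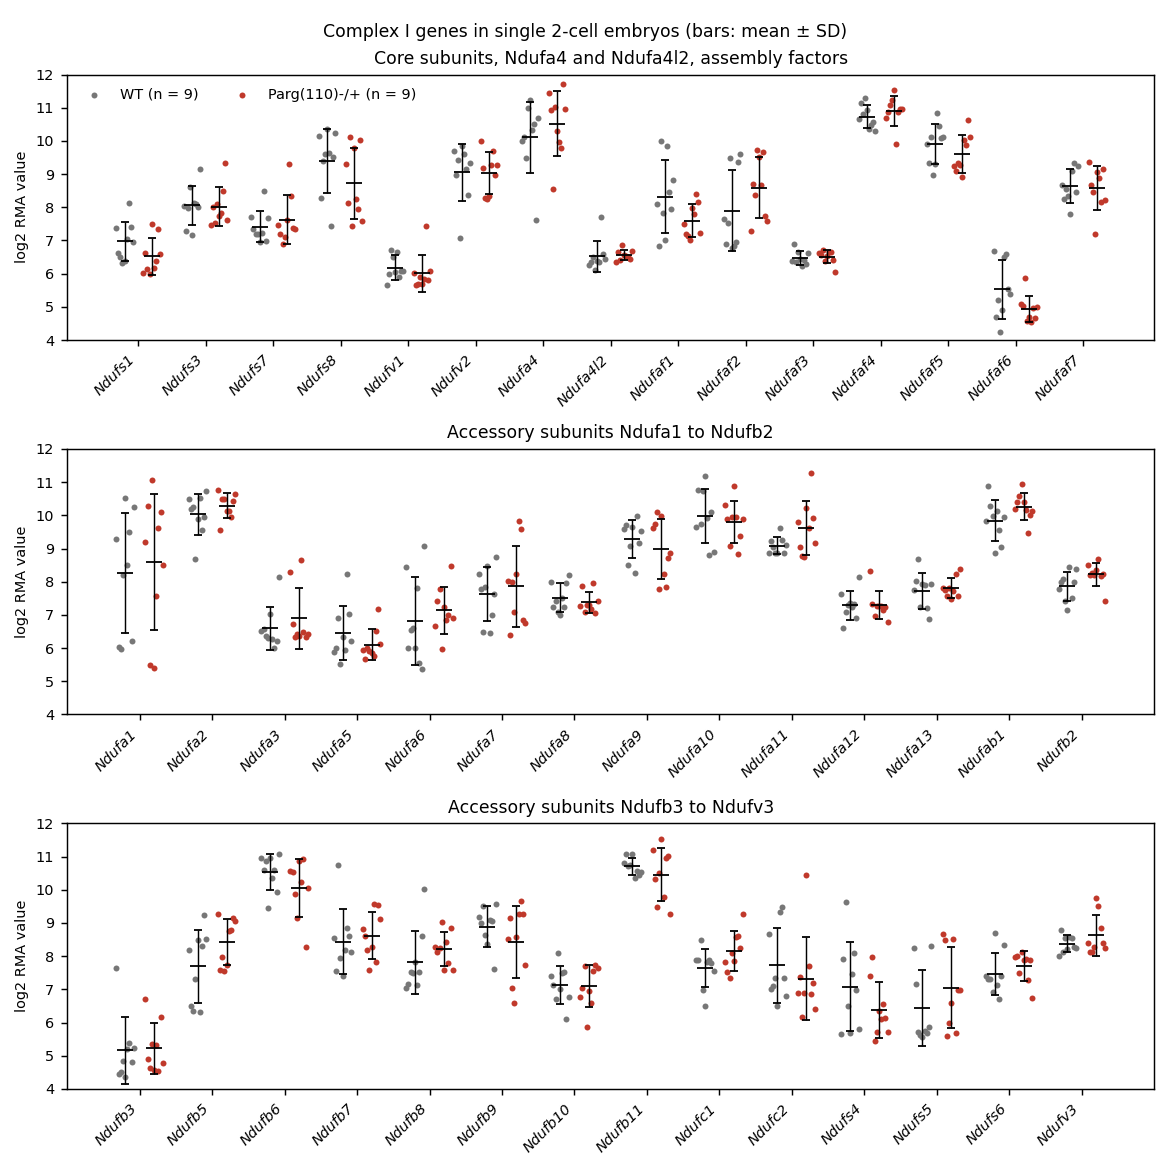
Log2 level (vertical) of each of the 43 complex I genes in 9 WT (grey) and 9 Parg(110)-/+ (red) embryos, 1 point per embryo, with the mean and SD of each group as black bars. The groups overlap for all 43 genes, and single embryos stand far from their group for genes such as Ndufb3 and Ndufa4.

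For 5 of the genes the annotation gave a second probe set that names that gene alone, which read the same embryos again. Whether both probe sets measure only the gene they name was not tested. Over the 18 embryos the correlation of both probe sets was 0.99 for Ndufab1, 0.97 for Ndufs3, 0.96 for Ndufa11, 0.69 for Ndufc1 and 0.59 for Ndufb11. The spread between embryos was therefore read alike by both probe sets for Ndufab1, Ndufs3 and Ndufa11. For Ndufb11 the second probe set had an SD of 0.23 against 0.59 for the first. Both probe sets come from the same amplified cDNA of an embryo, so their correlation says nothing of the amplification.

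The genes did not move as a block over the embryos. Over all 903 pairs of complex I genes the median Pearson correlation across the 18 embryos was 0.06, with 3.43% of the pairs over 0.5 and 1.66% under -0.5. Over pairs of probe sets above the median level, the median was 0.01 and the shares were 3.37% and 2.14%. The highest correlations were 0.71 for Ndufa3 with Ndufs5, 0.70 for Ndufc2 with the core subunit Ndufs1, 0.68 for Ndufa1 with Ndufa4 and 0.68 for Ndufa4l2 with Ndufa5. The lowest were -0.65 between the assembly factors Ndufaf4 and Ndufaf5 and -0.63 between Ndufa4l2 and Ndufs8. Among genes that share a promoter core, the median correlation was 0.02 over the 36 pairs of the 9 genes with the NRF-1 core (from -0.65 to 0.58), -0.01 over the 21 pairs with the YY1 core (from -0.53 to 0.57) and 0.16 over the 10 pairs with the Ets core (from -0.39 to 0.48). These are descriptions over 18 embryos that share arrays, amplification and normalization.

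Averaged over the 43 genes, the deviation from each gene's own mean ran from -0.25 to 0.41 in WT and from -0.35 to 0.25 in Parg(110)-/+ embryos. It averaged -0.01 ± 0.23 over the WT and 0.01 ± 0.22 over the Parg(110)-/+ embryos (SD, n = 9 each). WT3-3 had the highest mean deviation, with 29 of 43 genes above their means, and PargA-3 the lowest, with 13, a count that WT2-1 shared. WT2-2 held the lowest value of 9 genes and PargB-1, the array that stood apart, that of 7, while PargA-1 held the highest value of 6.

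**Figure D3:**
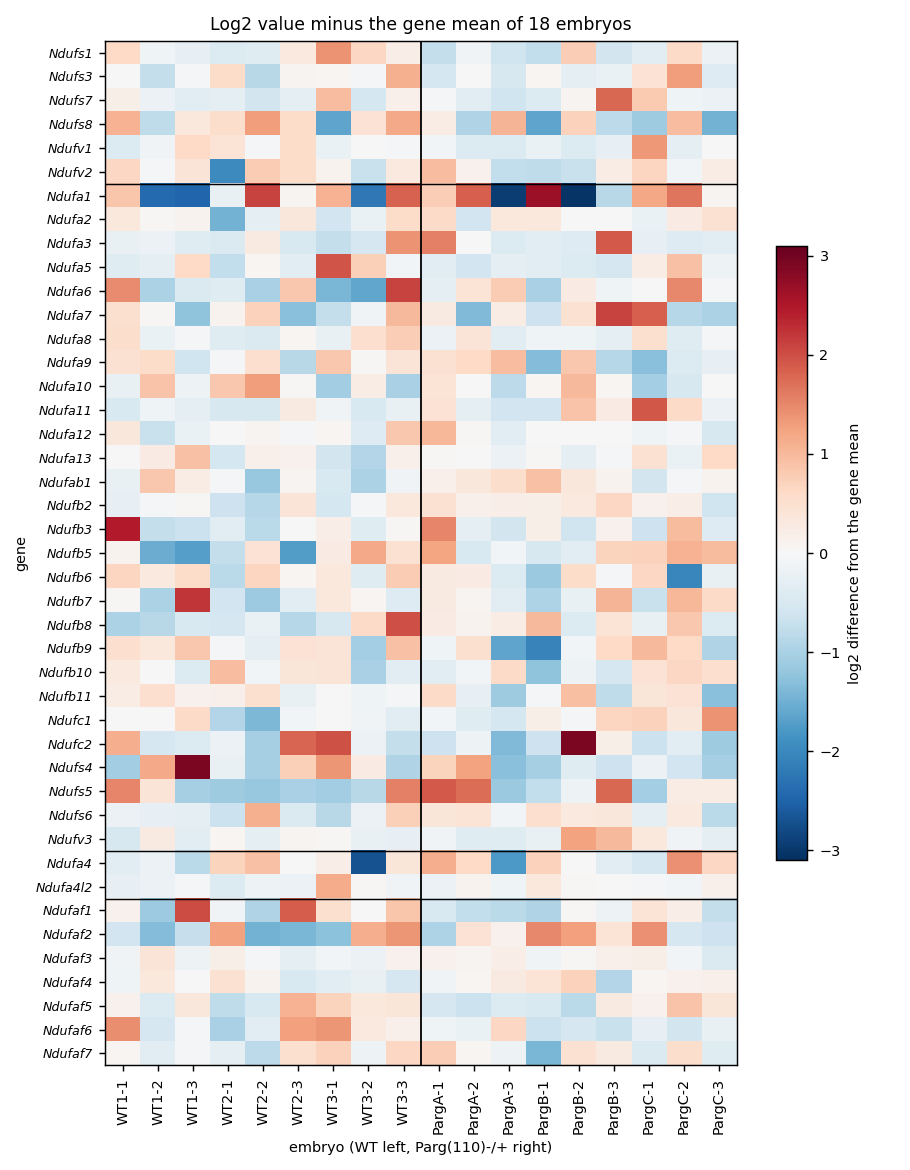
Log2 level minus the gene's mean over 18 embryos (colour, red higher and blue lower) for the 43 genes (vertical, by role from core at the top to assembly factors at the bottom) in each embryo (horizontal, WT left of the line). No embryo is red or blue throughout. WT3-3 has 29 genes above their means, and PargA-3 and WT2-1 have 13 each.

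Between the genotypes, no complex I gene passed the test. With the cutoff that the study set on adjusted p-values, 0.1, limma called 0 of the 43 genes and 0 of all 28815 probe sets (0%). At an unadjusted p under 0.05 there were 0 of the 43 genes against 10.5% of all probe sets. On arrays set to equal medians these were 0 genes and 6.22%, and after a second quantile normalization 2 genes and 6.32%. Without single embryos they were 0 to 3 genes, above 0 in 15 of 18 fits, against 2405 to 3625 of all 28815 probe sets. The adjusted p of the genes lay between 0.486 and 0.997. The difference, Parg(110)-/+ minus WT, was above 0 for 24 genes and below for 19, with a median of 0.04 over a range from -0.72 (Ndufaf1) to 0.74 (Ndufb5), where 67.1% of all probe sets were higher and their median was 0.05. On arrays set to equal medians 21 of the 43 genes and 48.0% of all probe sets were higher, with medians of -0.02 and -0.01. No gene had groups that did not overlap, which 0.0104% of all probe sets had. Without PargB-1, 0 genes were called, 1 had an unadjusted p under 0.05, and the median was 0.08. Of all 28815 probe sets, 1 was called there, 2763 had an unadjusted p under 0.05, and the median was 0.05.

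The precision for single genes was limited. The 95% interval of the difference included 0 for all 43 genes. It reached 0.63 to either side in the median gene, 0.20 for Ndufaf3 and 1.82 for Ndufa1. It lay within a doubling in either direction for 24 of the 43 genes, and reached beyond it for the other 19.

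**Figure D4:**
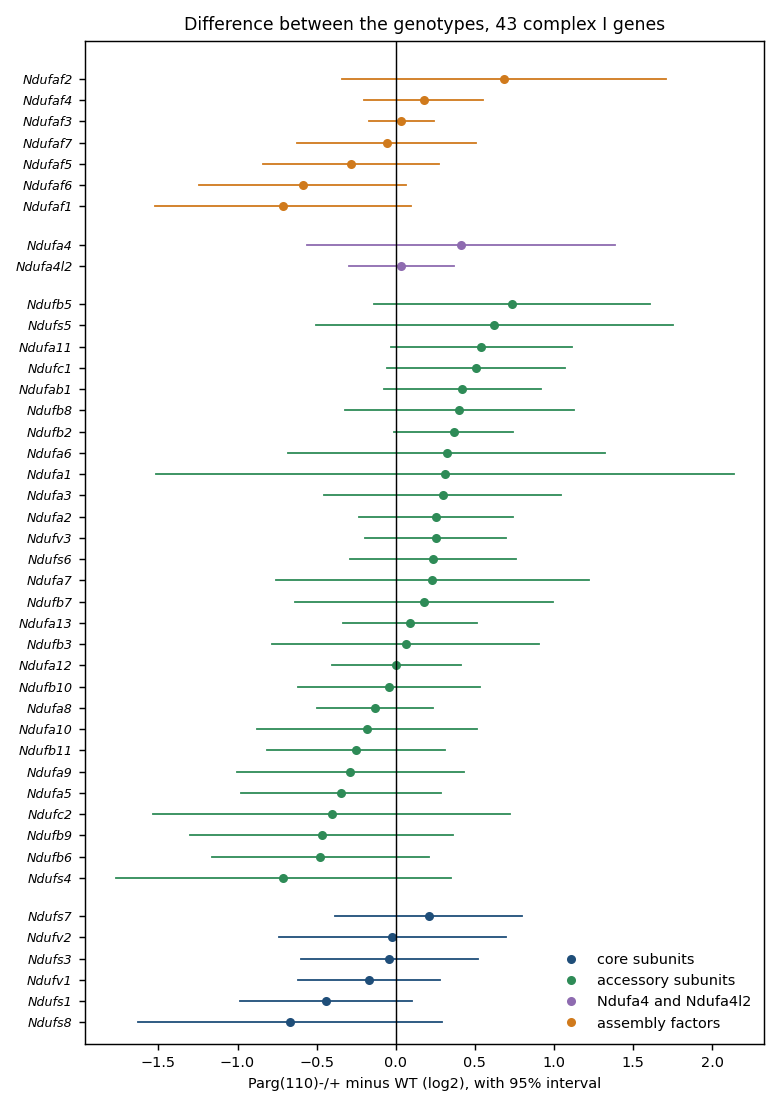
Difference in log2 level between 9 Parg(110)-/+ and 9 WT embryos (horizontal; points) with its 95% interval from limma (lines) for the 43 genes, grouped by role. All 43 intervals include 0, and the widest belongs to Ndufa1.

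Among the nuclear-encoded core subunits, 5 of the 6 measured lay lower in Parg(110)-/+ embryos, with a median difference of -0.11, and none passed the test. The split was 4 lower and 2 higher after a second quantile normalization. Ndufs8 (chromosome 19), which carries iron-sulfur clusters in the module that passes electrons to ubiquinone, had the largest difference. It measured 10.14, 8.27, 9.39, 9.62, 10.37, 9.63, 7.43, 9.50 and 10.24 in the WT embryos and 9.30, 8.13, 10.11, 7.43, 9.78, 8.26, 7.96, 10.01 and 7.59 in the Parg(110)-/+ embryos. WT3-1 and PargB-1 were lowest at 7.43 each and the groups overlapped, with a difference of -0.67 ± 0.46 (SE, adjusted p = 0.594). Ndufs1 (chromosome 1), an iron-sulfur subunit of the NADH-oxidizing module, ran from 6.33 over a median of 6.95 to 8.13 in WT and from 5.99 over 6.39 to 7.51 in Parg(110)-/+ embryos. In 7 of the 9 Parg(110)-/+ embryos it was under the WT mean, with a difference of -0.44 ± 0.26 (SE, adjusted p = 0.542).

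The other 4 core subunits differed less. Ndufv1, which binds NADH and the flavin, measured 6.18 ± 0.37 in WT and 6.01 ± 0.56 (SD, n = 9 each) in Parg(110)-/+ embryos, with 8 of the 9 below the WT mean and PargC-1 at 7.45. Ndufv2, its iron-sulfur partner, measured 9.05 ± 0.86 and 9.03 ± 0.63, and Ndufs3, which links the modules of the matrix arm, 8.06 ± 0.60 and 8.01 ± 0.58. Ndufs7, which carries the last iron-sulfur cluster before ubiquinone, was the 1 core subunit with a positive difference, 0.21 ± 0.28 (SE), and without PargB-3, at 9.30 the highest embryo, it was -0.00185. The 95% intervals ran from -0.62 to 0.28 for Ndufv1, -0.74 to 0.70 for Ndufv2, -0.60 to 0.52 for Ndufs3 and -0.39 to 0.80 for Ndufs7. The mitochondrial core subunit ND3 differed by 0.02 ± 0.05 (SE, adjusted p = 0.864), which was -0.03 on arrays set to equal medians.

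Of the 28 accessory subunits 18 were higher and 10 lower in Parg(110)-/+ embryos, where 67.1% of all probe sets were higher. The median difference of these subunits was 0.20, and none passed the test. On arrays set to equal medians 17 subunits were higher and 11 lower, with a median of 0.15, where 48.0% of all probe sets were higher. The smallest p of all complex I genes, 0.0561, belonged to Ndufb2 (chromosome 6), a membrane-arm subunit. It measured 7.78, 8.00, 8.09, 7.41, 7.16, 8.45, 7.50, 7.98 and 8.37 in the WT embryos and 8.51, 8.19, 8.26, 8.21, 8.35, 8.69, 8.17, 8.24 and 7.41 in the Parg(110)-/+ embryos. All Parg(110)-/+ embryos but PargC-3 lay above the WT mean, within or just above the WT range, with a difference of 0.37 ± 0.18 (SE, adjusted p = 0.486).

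Other accessory subunits with higher means were Ndufa11, Ndufc1, Ndufab1 and Ndufb5. Ndufab1 (chromosome 7), the mitochondrial acyl carrier protein, which also serves lipoic acid synthesis, ran from 8.87 over a median of 9.94 to 10.88 in WT and from 9.48 over 10.19 to 10.95 in Parg(110)-/+ embryos, and 8 of 9 lay above the WT mean. Its difference was 0.42 ± 0.24 (SE, adjusted p = 0.529), and 0.39 at its second probe set. Ndufb5, of the membrane arm, ran from 6.32 over 8.18 to 9.23 and from 7.55 over 8.74 to 9.27, with 7 of 9 above the WT mean and a difference of 0.74 ± 0.41 (SE, adjusted p = 0.529). Ndufc1, also of the membrane arm, ran from 6.50 over 7.81 to 8.48 and from 7.34 over 8.08 to 9.27, a difference of 0.51 ± 0.27 (SE, adjusted p = 0.505) that was 0.20 at the second probe set. Ndufa11, a membrane-arm subunit, differed by 0.54 ± 0.27 (SE), with a 95% interval from -0.03 to 1.11. The difference of Ndufa11 was 0.86 at its second probe set, and 0.33 at the first without PargC-1.

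In the other direction, Ndufs4 differed by -0.71 ± 0.50 (SE, adjusted p = 0.605) and Ndufb6, of the membrane arm, by -0.48 ± 0.32 (SE, adjusted p = 0.593). Ndufb6 ran from 9.45 over 10.61 to 11.07 in WT and from 8.26 over 10.25 to 10.93 in Parg(110)-/+ embryos, where PargC-2 and PargB-1 were the lowest. The difference of Ndufb6 was -0.25 without PargC-2, and that of Ndufs4 was -0.39 without WT1-3, its highest embryo. The differences of the most variable accessory subunits were 0.31 ± 0.87 (SE) for Ndufa1, 0.62 ± 0.54 for Ndufs5 and -0.41 ± 0.54 for Ndufc2. The value for Ndufa1 ran from -0.00279 without PargB-1 to 0.71 without PargB-2, and that for Ndufc2 from -0.80 without PargB-2 to -0.19 without WT3-1. The 17 complex I genes outside the rule for named genes, among them Ndufa5, Ndufb10, Ndufaf4 and Ndufaf5, had differences from -0.47 to 0.40, SDs over the 18 embryos from 0.20 to 1.04, and adjusted p from 0.666 to 0.997.

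The 7 Ndufaf assembly factors were split, with 3 higher and 4 lower in Parg(110)-/+ embryos and a median difference of -0.06. The split was 2 higher and 5 lower on arrays set to equal medians. Ndufaf1 (chromosome 2), a chaperone of the early membrane arm, measured 8.10, 6.83, 9.99, 7.84, 7.02, 9.84, 8.46, 7.95 and 8.82 in the WT embryos and 7.49, 7.20, 7.14, 7.03, 7.99, 7.81, 8.39, 8.16 and 7.23 in the Parg(110)-/+ embryos. All Parg(110)-/+ embryos but PargC-1 lay below the WT mean yet inside the WT range, and the difference was -0.71 ± 0.38 (SE, adjusted p = 0.512). Ndufaf6, which acts early in assembly, was likewise under the WT mean in 8 of 9 embryos. It ran from 4.23 over 5.39 to 6.67 in WT and from 4.54 over 4.97 to 5.86 in Parg(110)-/+ embryos, and the means differed by -0.59 ± 0.31 (SE, adjusted p = 0.505). For both genes the SD was larger in WT than in Parg(110)-/+ embryos, at 1.10 against 0.50 and 0.88 against 0.41, which was not tested. Ndufaf2 differed by 0.68 ± 0.49 (SE, adjusted p = 0.608).

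The pair set apart from the subunits was Ndufa4, now placed in complex IV, and its hypoxia-inducible paralogue Ndufa4l2. Ndufa4 measured 10.11 ± 1.07 in WT and 10.52 ± 0.98 (SD, n = 9 each) in Parg(110)-/+ embryos, and Ndufa4l2 6.52 ± 0.46 and 6.56 ± 0.16. The differences were 0.41 ± 0.46 (SE, adjusted p = 0.750) and 0.04 ± 0.16 (SE, adjusted p = 0.945), and the sign of the second turned with the scaling of the arrays. Without WT3-2 the difference of Ndufa4 was 0.10.

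Genes that work with these showed no called change either. Of 11 assembly factors with other names 5 were higher and 6 lower. An unadjusted p under 0.05 was seen for 2 of the 11, Acad9 and Tmem126b, against 10.5% of all probe sets. Their products act in a complex with that of Ndufaf1, but the 2 genes went in opposite directions. Their means, 6.32 and 4.86, lay under the median of all probe set means. Acad9 differed by 0.13 ± 0.05 (SE, adjusted p = 0.408) and Tmem126b by -0.21 ± 0.10 (SE, adjusted p = 0.465). Of the 8 complex II genes 4 were higher and 4 lower. Sdhaf1, which helps to insert iron-sulfur clusters into complex II, ran from 5.39 to 9.26 in WT and from 5.42 to 6.50 in Parg(110)-/+ embryos, and its means differed by -1.02 ± 0.48 (SE, adjusted p = 0.471). Of the 13 regulators 6 were higher and 7 lower. The orphan nuclear receptor Esrra had the smallest p, with 0.20 ± 0.07 (SE, adjusted p = 0.375), and the differences of Nrf1 and Yy1, which encode factors whose cores are shown above, were -0.16 ± 0.22 and 0.25 ± 0.15 (SE, adjusted p = 0.791 and 0.550).

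Family by family, with 3 embryos each against all 9 WT embryos, 0 complex I genes were called, where limma called 0% of all probe sets for PargA, 0.0139% for PargB and 0.0104% for PargC. At an unadjusted p under 0.05 there were 0, 2 and 3 of the 43 genes, against 5.32%, 12.8% and 7.24% of all probe sets. The 3 comparisons share the WT embryos. The genes at an unadjusted p under 0.05 in family PargB were Ndufv3, an accessory subunit of the NADH-oxidizing module, at 0.81 ± 0.24 (SE, adjusted p = 0.240), and Ndufb2 at 0.56 ± 0.25 (SE, adjusted p = 0.366). Without PargB-1, which stood apart, Ndufv3 was called in family PargB, at 1.26 ± 0.19 (SE, adjusted p = 0.0351), where 0.121% of all probe sets were called.

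The 3 embryos of PargB read 8.27, 9.75 and 9.51 for Ndufv3, those of PargA 8.39, 8.13 and 8.12, and those of PargC 8.83, 8.40 and 8.23, against 8.01 to 8.78 in WT. Thus PargB-2, PargB-3 and, just above the range, PargC-1 exceeded all WT embryos, and PargB-1 did not. In family PargC the genes at an unadjusted p under 0.05 were Ndufc1 at 1.07 ± 0.32 (SE, adjusted p = 0.441), Ndufa11 at 1.05 ± 0.36 (SE, adjusted p = 0.552) and Ndufb5 at 1.30 ± 0.59 (SE, adjusted p = 0.670). Ndufc1 measured 8.61, 8.25 and 9.27 there, against 6.50 to 8.48 in WT.

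Between the fathers within a genotype, limma's F test called 0 complex I genes, with 0% of all probe sets called among WT and 0.00347% among Parg(110)-/+ embryos. At an unadjusted p under 0.05 there was 1 gene among WT fathers, Ndufc1, against 4.09% of all probe sets. There were 5 among Parg(110)-/- fathers, Ndufc1, Ndufb10, Ndufa5, Ndufaf5 and Ndufaf6, against 4.36%, and the adjusted p was 0.929 for each of them. The WT embryos read 7.87, 7.89, 8.48, 6.98, 6.50, 7.81, 7.88, 7.79 and 7.56 for Ndufc1 in the order of their fathers, and the lowest 2 came from WT2.

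In single embryos, 8 complex I genes, Ndufa4 and Ndufa4l2 among them, departed from the WT embryos far enough to be called, each in 1 embryo. Setting each Parg(110)-/+ embryo against the 9 WT embryos gave 3 calls in 387 comparisons of a gene and an embryo (0.775%), against 0.865% over all probe sets. Setting each WT embryo against the other 8, as the background, gave 5 calls in 387 (1.29%), against 0.731%. In these comparisons a lone embryo is assumed to vary as the WT embryos do.

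The Parg(110)-/+ embryos with a call were PargB-2 (0.691% of all probe sets called), PargC-1 (0.76%) and PargC-3 (0.843%). No complex I gene was called in PargA-1 (0.628%), PargA-2 (0.635%), PargA-3 (0.604%), PargB-1 (2.17%), PargB-3 (0.826%) or PargC-2 (0.625%). Ndufa11 measured 11.28 in PargC-1 against 8.85 to 9.63 in the 9 WT embryos, a difference of 2.21 ± 0.26 (SE, adjusted p = 0.0043). The second probe set of Ndufa11 measured 11.04 in PargC-1 against 7.03 to 8.54. Of the other Parg(110)-/+ embryos, PargA-1 at 9.80, PargB-2 at 10.23 and PargC-2 at 9.93 also exceeded all WT embryos at the first probe set, and the remaining 5 lay between 8.74 and 9.61.

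Ndufv3 in PargB-2, with the values given above, differed by 1.38 ± 0.25 (SE, adjusted p = 0.0698). The gene Ndufb11, of the membrane arm, lies on chromosome X, and where its probe sets map was not tested. Its first probe set was low in PargC-3, at 9.27 against 10.34 to 11.09 in WT, a difference of -1.43 ± 0.26 (SE, adjusted p = 0.0525). Its second probe set measured 7.83 there, within the WT range of 7.71 to 8.35, so both probe sets differed in this call. In PargA-2, PargA-3 and PargB-3 the first probe set of Ndufb11 was also under all WT embryos, at 10.33 (just under), 9.49 and 9.80. In PargA-1 and PargB-2 it was above all WT embryos, at 11.18 and 11.52. At the second probe set PargA-2 (8.00), PargA-3 (8.16) and PargB-2 (8.05) lay within the WT range. PargB-3 (7.70) lay just under that range and PargA-1 (8.39) just above it. The SD of the first probe set was 0.79 in Parg(110)-/+ embryos against 0.26 in WT.

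Of the WT embryos, WT1-1 (0.732% of all probe sets called), WT1-3 (0.708%), WT3-1 (1.15%), WT3-2 (0.732%) and WT3-3 (0.569%) had 1 call each, and WT1-2 (0.479%), WT2-1 (0.93%), WT2-2 (0.68%) and WT2-3 (0.6%) had none. Ndufb3, a membrane-arm subunit, measured 7.64 in WT1-1 against 4.37 to 5.40 in the other WT embryos, a difference of 2.79 ± 0.38 (SE, adjusted p = 0.0148). It reached 6.71 in PargA-1 and 6.16 in PargC-2 and lay between 4.55 and 5.36 in the other Parg(110)-/+ embryos. Ndufa4l2 measured 7.70 in WT3-1 against 6.11 to 6.58, a difference of 1.32 ± 0.16 (SE, adjusted p = 0.00621), and at most 6.87 in the Parg(110)-/+ embryos.

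Ndufa3, a membrane-arm subunit, measured 8.14 in WT3-3 against 6.00 to 7.02, a difference of 1.74 ± 0.30 (SE, adjusted p = 0.0639). It was also high in PargA-1 at 8.30 and PargB-3 at 8.65, where it was not called against WT embryos that include WT3-3. WT3-3, PargA-1 and PargB-3 were also among the 5 embryos with high Ndufs5. Ndufb7, a membrane-arm subunit held by disulfides, measured 10.74 in WT1-3 against 7.39 to 8.86, a difference of 2.60 ± 0.50 (SE, adjusted p = 0.0982). Ndufa4 measured 7.62 in WT3-2 against 9.48 to 11.23, a difference of -2.80 ± 0.54 (SE, adjusted p = 0.0969). On arrays set to equal medians Ndufb7, Ndufa4 and Ndufv3 were no longer called, at adjusted p of 0.137, 0.113 and 0.108, with differences of 2.52, -2.81 and 1.30 that stayed close to those above.

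**Figure D5:**
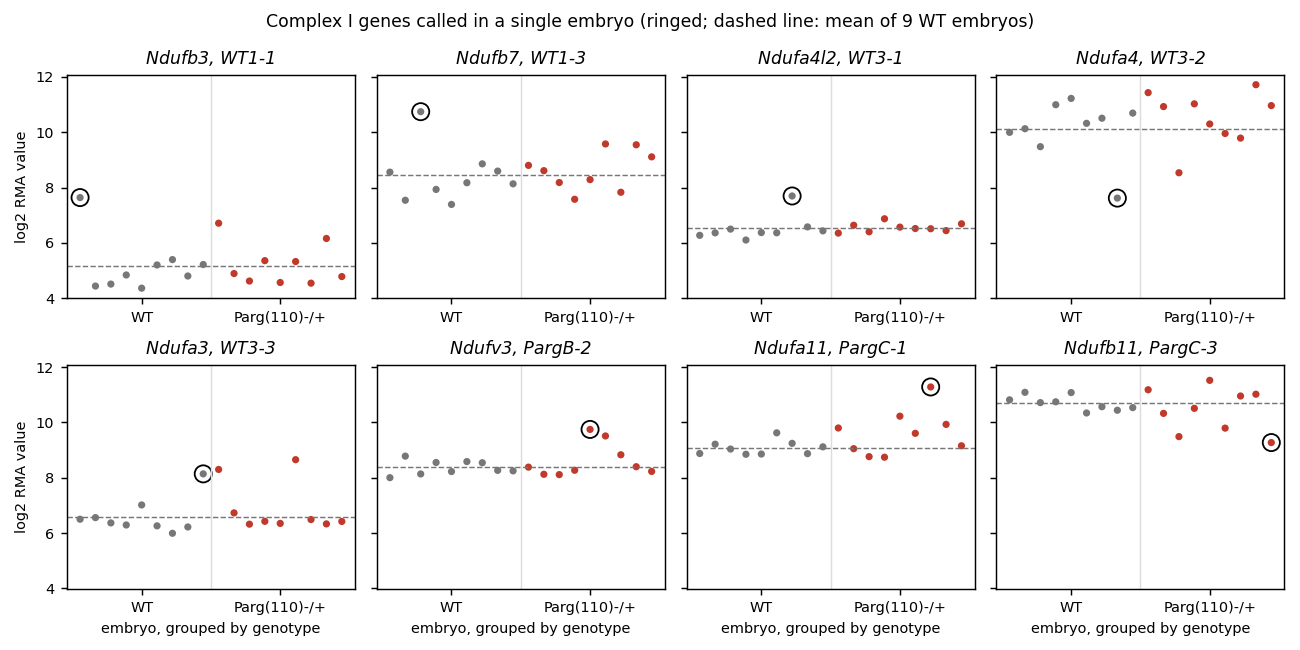
Log2 level (vertical) of the 8 complex I genes called in a single embryo, in 9 WT (grey) and 9 Parg(110)-/+ (red) embryos, with the called embryo ringed and the WT mean as a dashed line. The ringed embryo of Ndufa11 lies at 11.28 and that of Ndufb3 at 7.64, while for Ndufa3 the Parg(110)-/+ embryos PargA-1 and PargB-3 lie as high as the ringed WT embryo.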

How the data were processed

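Gene expression was measured in 18 single 2-cell embryos, 9 per genotype. The authors deposited log2 values made with RMA in Partek Genomics Suite (background correction, quantile normalization, summarization), with versions not given in the sources used here. RMA compresses differences of dim probe sets, and quantile normalization can hide a change common to most genes. Of 28815 probe sets 21780 named 1 gene, 1605 several, and 5430 were not listed in the annotation.

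Two-sided limma tests (version 3.58.1 in R 4.3.3, lmFit then eBayes) covered all probe sets, p-values were adjusted after Benjamini and Hochberg over all of them, and calls were made under 0.1. Precision is limited by the number of embryos and fathers. The consensus correlation within fathers was -0.023. Slides and scans were not used here. The scripts were tested on simulated data. The alternatives were equal array medians, a second quantile normalization, bright probe sets alone, the mean over a gene's probe sets, a test without moderation, means per father, the father as a block, and leaving out each embryo or father.

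The genes, lists and tests were chosen with earlier results of these data known. Genes were named if they were nuclear core subunits, among the 10 smallest p between the genotypes or the 5 largest SDs, called in any comparison, or the smallest p of another pathway list. Tmem126b, Nrf1, Yy1, Ndufb10, Ndufa5, the genes with printed sequences and the correlated pairs were added after their values were seen.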

Additional observations from a re-analysis of the deposited data

Results flagged for a closer look

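Among 60 groups of 9 embryos (30 genes in each genotype), 10 had an embryo far from the other 8 by Dixon's criterion (the gap to the nearest embryo over the range of the group). Chance would mark about 1 in 20 groups of genes chosen without regard to their spread, but these genes were named in part for such embryos or for large SDs, so that rate does not apply to them. High in WT embryos were Ndufb3 in WT1-1 at 7.64, Ndufb7 in WT1-3 at 10.74, Ndufa4l2 in WT3-1 at 7.70, Ndufs7 in WT3-1 at 8.48 and Ndufa3 in WT3-3 at 8.14. Ndufa4 was low in WT3-2 at 7.62. In Parg(110)-/+ embryos Ndufc2 was high in PargB-2 at 10.44, Ndufv1 in PargC-1 at 7.45 and Ndufaf6 in PargA-3 at 5.86, while Ndufb2 was low in PargC-3 at 7.41. These 10 values belong to 9 embryos, and 5 of them are the single-embryo calls for which the genes were named.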

How the results depend on the processing

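Between the genotypes, 0 complex I genes were called under all 31 alternatives, with a lowest adjusted p of 0.348 for any of the genes. These were limma fits, except for the test without moderation. The count at an unadjusted p under 0.05 was 0 on the deposited values, 2 after a second quantile normalization, 1 on means per father, 2 without father WT1, 2 without WT2, 4 without WT3, 3 without PargA and 4 without PargC. In the same order, all 28815 probe sets gave 3018, 1820, 2205, 3126, 2381, 2136, 3279 and 3019. Leaving out 1 embryo gave 0 to 3 of the 43 genes, against 2405 to 3625 of all probe sets. The count of genes was above 0 in 15 of 18 fits, the exceptions being those without WT1-1, PargA-1 or PargB-3. Calls in family PargB ranged from 0 to 1 when an embryo was left out (1, Ndufv3, without PargB-1), where all probe sets gave 4 calls with all 3 embryos and 35, 72 and 68 without PargB-1, PargB-2 and PargB-3. Calls over the 9 single WT embryos were 5, and 3 on equal array medians, where the lost Ndufb7 and Ndufa4 differed by 2.52 and -2.81. The median difference of the 43 genes was 0.04, -0.02 on equal medians, 0.01 after the second quantile normalization and 0.09 for probe sets above the median level.

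Of 926 alternative differences of named genes between the genotypes, 885 kept their direction, 41 in 9 genes reversed and 0 were called, and the cause was not tested. Ndufs3 ran from -0.204 to 0.0952 when an embryo was left out and was 0.141, 0.128 and 0.0233 without WT3, PargA and PargB. Ndufs7 ran from -0.00185 to 0.339. Ndufv2 ran from -0.268 to 0.0773 and was 0.00741 after the second quantile normalization, 0.136 without WT1 and 0.183 without PargB. Ndufa1 ran from -0.00279 to 0.707 and was -0.282 without WT1 and -0.105 without PargC. Ndufa4l2 ran from -0.0171 to 0.182 and was -0.0213 on equal medians, -0.00921 after the second quantile normalization, and -0.0362, -0.085 and -0.014 without WT1, WT2 and PargB. Ndufb3 ran from -0.125 to 0.372 and was -0.116 without WT2 and -0.0333 without PargA. Ndufb7 was -0.125 without WT2 and Ndufv3 -0.0243 without PargB. ND3 was -0.0318 on equal medians and -0.0147 without PargB.

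No paired analysis was possible because the embryos' numbers name a father and an embryo of that father and are shared by no embryo of the other genotype.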
